A study of Mus musculus with 16 samples.

Results

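The C/EBP family and the other transcription factors that set the myeloid lineage were followed in mouse blood neutrophils by bulk RNA-Seq. The 10 genes were chosen by name and not by a measured value, though with earlier results of these data known. They were Cebpa, Cebpb, Cebpd, Cebpe, Spi1, Gfi1, Runx1, Ets2, Fli1 and Mxd1, out of 23337 gene symbols counted. Of these, 9 were listed under their current symbol and Spi1 under its older symbol Sfpi1, matched through RefSeq synonyms. All 10 passed the filter on low counts that left 9213 genes for testing, Gfi1 with 0 counts in 6 of 16 libraries. Neutrophils came from the blood of 8-week-old C57/Bl6 mice by negative magnetic selection. LTβRΔN mice carry Ltbr fl/fl and Mrp8-Cre, a transgene that drives Cre and GFP from the S100A8 promoter, which is active in neutrophils and their precursors. Control mice carry Ltbr fl/fl without Cre. The label unstimulated is carried by 3 control and 4 LTβRΔN libraries, and the label stimulated by 4 control and 5 LTβRΔN libraries. According to the protocol, cells were cultured for 2 h. TNF and GM-CSF were used at 100 ng/ml and IL-6 at 50 ng/ml, and LIGHT, a ligand of LTβR, was present or absent at 500 ng/ml. The design text names the cytokines themselves as the treatment, and no label gives the LIGHT status of a single library, so groups are named here by their labels. Whether libraries came from separate animals is not stated, so p-values measure the spread between these libraries.

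C/EBP proteins are basic leucine zipper factors that bind DNA as dimers and exchange partners within the family. During granulopoiesis C/EBPα acts early, C/EBPε in the late precursors that fill the granules, and C/EBPβ under inflammatory demand, while C/EBPδ responds to acute-phase cytokines. PU.1, encoded by Spi1, is an ETS factor needed for myeloid cells, RUNX1 acts upstream of it, GFI1 represses the monocyte programme in favour of the neutrophil programme, FLI1 and ETS2 are further ETS factors, and MXD1 pairs with MAX and opposes MYC as cells stop dividing.

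Total counts lay between 1094335 and 11932653 per library, lowest at the median in stimulated LTβRΔN neutrophils (2408608). CPM values below are depth-normalised counts, relative to a library's total scaled with edgeR's TMM factor. Ltbr, the deleted gene, was at 116 ± 33.0 (SD, n = 3) and 109 ± 27.7 (SD, n = 4) CPM in unstimulated and stimulated control neutrophils, against 8.22 ± 3.14 (SD, n = 4) and 8.65 ± 6.75 (SD, n = 5) CPM in LTβRΔN neutrophils. Cish, Socs3 and Nfkbia, genes that respond to cytokine and NF-κB signalling, had log2 fold changes between treatment labels of 3.59 to 8.60. The 7 neutrophil markers summed to 44416 to 74928 CPM in every library. The 4 NK cell markers were at 0 and the 4 B cell markers at no more than 1.60 CPM. Other cell types were not absent, with highest sums of 563 CPM for 7 monocyte and 170 CPM for 5 platelet markers. Highest sums were 114 CPM for 4 eosinophil, 66.6 CPM for 5 erythroid and 17.1 CPM for 5 T cell markers. The part of these cells in the values of the scarce factors was not tested. Sums of 7 immature neutrophil markers were 42.4 to 234 CPM outside the stimulated control group, where they reached 340.5 and 811 CPM in libraries 83 and 82, and Mpo and Elane were at 0 throughout. The titles carry an index, S520 in 6 and S521 in 10 libraries. All unstimulated LTβRΔN libraries had S520 and all stimulated ones S521, so that label and index cannot be told apart there. Of the unstimulated control libraries, 2 had S520 and library 73 had S521.

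Levels of the 10 factors differed widely. Since a long transcript collects more reads, genes were compared as CPM per kb of annotated exon. Mxd1 at a mean of 826 and Spi1 at 660.3 CPM per kb over the 16 libraries were the most abundant, followed by Cebpd at 341 and Ets2 at 247. Mxd1 was above Spi1 in 11 of 16 libraries, and the order of this pair differed by treatment label. Mxd1 was above in all 4 stimulated control and all 5 stimulated LTβRΔN libraries, but in only 1 of 3 unstimulated control libraries. In unstimulated LTβRΔN neutrophils Spi1 was above Mxd1 in 3 of 4 libraries and had the higher mean, 761 against 748 CPM per kb. With the longest transcript in place of all exons the means were 1252 for Mxd1 and 875 for Spi1. Cebpd exceeded Ets2 in 13 of 16 libraries, and among stimulated LTβRΔN libraries their means were 314 and 313. Cebpb followed at 66.8 CPM per kb, with a range of 15.7 to 203, and was above Fli1, at 17.4, in 15 of 16 libraries. The remaining factors were scarce. Cebpe had 7.92, Cebpa 4.45, Runx1 1.69 and Gfi1 0.447 CPM per kb. Mature neutrophils therefore held the stress-inducible C/EBPδ transcript at a level well above those of the precursor factors C/EBPα and C/EBPε, with every library of Cebpd (257 to 469.7) above every library of Cebpa (2.13 to 8.10) and Cebpe (3.62 to 17.2).

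**Figure D1:**
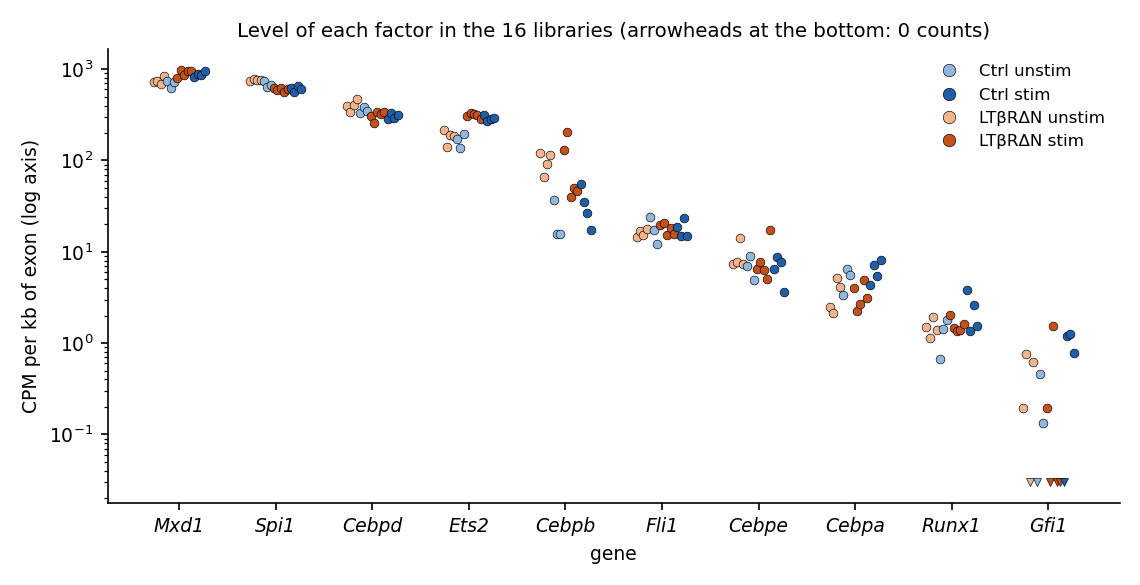
Level of each factor in each of the 16 libraries as CPM per kb of exon on a log axis, coloured by group, with arrowheads for libraries at 0 counts. Mxd1 and Spi1 lie highest, means 826 and 660.3 CPM per kb, and Gfi1 lowest, with 6 libraries at 0.

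Of the 10 genes, 6 had a promoter entry in RefSeq (GRCm38.p6), and the 250 bases before each start were searched on both strands. The sequences shown are those of Mxd1 and Cebpb. Mxd1 had the highest mean per kb over all libraries and was higher with stimulation. Cebpb was the factor with the largest estimates between genotypes, which are given below with their tests. Capitals mark GC boxes (GGGCGG), the element bound by factors of the SP1 family.
Mxd1, chr6:86669162-86669409, minus strand: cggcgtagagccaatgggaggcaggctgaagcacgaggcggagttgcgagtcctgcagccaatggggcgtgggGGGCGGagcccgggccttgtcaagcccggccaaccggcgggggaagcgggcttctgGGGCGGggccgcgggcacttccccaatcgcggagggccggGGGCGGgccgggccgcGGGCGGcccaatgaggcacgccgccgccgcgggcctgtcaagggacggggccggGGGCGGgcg
Cebpb, chr2:167688665-167688914, plus strand: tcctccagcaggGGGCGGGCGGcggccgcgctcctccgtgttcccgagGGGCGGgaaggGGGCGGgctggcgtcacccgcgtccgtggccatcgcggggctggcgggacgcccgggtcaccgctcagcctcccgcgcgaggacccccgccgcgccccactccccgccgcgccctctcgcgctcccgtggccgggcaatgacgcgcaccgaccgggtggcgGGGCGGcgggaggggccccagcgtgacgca
The stretches hold 5 GC boxes each, of which the first pair of Cebpb shares bases, and are 78.2% and 81.6% G or C, against a median of 52.4% over 32851 promoter windows. For Mxd1, 2 bases next to the start that belong to its first exon were left out, and with them the window holds 6 boxes. At least 1 GGGCGG was found in 32.7% of all windows, a share that does not count boxes per window. The windows of Gfi1, Cebpa and Runx1 held 0 GC boxes, so the 2 stretches printed do not stand for the other factors. The window of Ets2 had 1 GC box, and it lies in the first exon of a longer GENCODE transcript, so it is not printed. A C/EBP element written as TTNNGNAA was found once in Mxd1 and once in a Gfi1 window (36.8% of all windows). A STAT element (TTCNNNGAA, 7.02% of all windows), an ETS element (CCGGAAGT, 2.88%) and a RUNX element (TGTGGT, 14.0%) were found in none of the member windows, and an NF-κB element (7.25%) in 1 window of Gfi1.

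To determine which factors changed with the treatment label, stimulated and unstimulated libraries were compared within each genotype, and as a mean over both. In control neutrophils, 1 of the 10 factors was higher in stimulated libraries, where 2.82% of all tested genes were, and 0 were lower, where 0.662% were (edgeR, adjusted p under 0.05). In LTβRΔN neutrophils 1 was higher, against 2.98% of tested genes, and 1 was lower, against 0.749%. Over both genotypes, with the larger number of libraries, 2 were higher, against 4.82%, and 2 were lower, against 1.91%. Ets2 rose in each of these comparisons. Mxd1 rose over both genotypes, Spi1 fell in LTβRΔN neutrophils and over both genotypes, and Cebpd fell over both. The 2 within-genotype comparisons do not share libraries, while the mean is made from both.

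Ets2, an ETS factor activated downstream of RAS and MAPK signalling, lies on chromosome 16 from 95702075 to 95721051 (GRCm38, GENCODE M21, plus strand). In control neutrophils it was counted at 990.4, 799 and 1115 CPM in the unstimulated libraries and at 1810.1, 1567, 1636 and 1676 CPM in the stimulated libraries. In LTβRΔN neutrophils it was counted at 1258, 803, 1093 and 1079.9 CPM without and at 1784, 1926, 1875, 1817 and 1647 CPM with stimulation. All 9 stimulated libraries were above all 7 unstimulated libraries, a separation that 3.3% of tested genes had. The log2 fold change was 0.79 (SE 0.14, edgeR adjusted p = 5.21e-04) in control and 0.77 (SE 0.12, edgeR adjusted p = 1.23e-04) in LTβRΔN neutrophils, about 1.73-fold and 1.71-fold. These p-values ranked 148 and 133 among the 9213 genes. By size alone the change was moderate, since 24.8% and 23.6% of tested genes had an estimate at least as far from 0. The difference between the genotypes' changes was -0.02 with a 95% interval of -0.39 to 0.36. Leaving out any 1 library left the call in place in both genotypes, with log2 fold changes of 0.66 to 0.90. Library 73, the unstimulated control library that shares index S521 with the stimulated libraries, had 1115 CPM, below the 4 stimulated control libraries. With the index in the model, the differences were 0.58 in control and 0.45 in LTβRΔN neutrophils and no longer called (edgeR adjusted p = 0.265 and 1). The other scalings, filters and models gave an adjusted p of at most 0.00921, and the refits without 1 library at most 0.0151.

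Mxd1, on chromosome 6 from 86647042 to 86669161 (minus strand), had the highest mean per kb over the 16 libraries, though not in most unstimulated ones. It had 5256, 4372 and 5148 CPM in unstimulated and 5868, 6337, 6145 and 6827 CPM in stimulated control libraries, which did not overlap, as in 12.7% of tested genes. In LTβRΔN neutrophils it had 5144, 5294, 4834 and 5880.4 CPM without and 5612, 6949, 6129, 6829 and 6825 CPM with stimulation, where the highest unstimulated library lay above the lowest stimulated one. Over both genotypes the log2 fold change was 0.32 (SE 0.072, edgeR adjusted p = 0.0049). Within control neutrophils it was 0.35 (SE 0.11, edgeR adjusted p = 0.0881) and within LTβRΔN neutrophils 0.29 (SE 0.095, edgeR adjusted p = 0.111), neither past the threshold. The call over both genotypes held without each library in turn and was lost when library totals alone set the scale (0.11, edgeR adjusted p = 0.346), and with the index in the model (0.24, edgeR adjusted p = 1).

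Spi1, on chromosome 2 from 91082390 to 91115756 (plus strand), moved the other way. In LTβRΔN neutrophils it had 1979.8, 2109, 2069 and 2046 CPM in unstimulated and 1698, 1599.9, 1679, 1529.8 and 1654 CPM in stimulated libraries, with no overlap between the labels, as in 7.28% of tested genes. In control neutrophils it had 2003, 1726 and 1792 CPM without and 1685, 1498, 1779.7 and 1626 CPM with stimulation, which overlapped. The log2 fold change was -0.33 (SE 0.088, edgeR adjusted p = 0.0319) in LTβRΔN and -0.16 (SE 0.099, edgeR adjusted p = 0.636) in control neutrophils, and -0.24 (SE 0.066, edgeR adjusted p = 0.0233) over both. The difference between the genotypes' changes was -0.17 (95% interval -0.44 to 0.11), so a weaker change in control neutrophils was not shown. The call in LTβRΔN neutrophils was lost without each of the unstimulated libraries 67, 69 and 70 and the stimulated libraries 76, 78 and 79, with edgeR adjusted p-values of 0.0505 to 0.0989. It was also lost with every gene of at least 1 count tested (edgeR adjusted p = 0.0645), with the LTβRΔN libraries fitted alone (0.0796) and with the index in the model (1). The call over both genotypes was lost without control libraries 71 (edgeR adjusted p = 0.101) and 81 (edgeR adjusted p = 0.0592), and with the index in the model (-0.20, edgeR adjusted p = 1).

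Cebpd, a single-exon gene on chromosome 16 from 15887286 to 15891031 (plus strand), was the main C/EBP transcript of these cells. Unstimulated libraries had 1235, 1441 and 1292 CPM in control and 1464, 1263, 1515 and 1759.5 CPM in LTβRΔN neutrophils. Stimulated libraries had 1076, 1225, 1105 and 1172 CPM in control and 1138, 962, 1277, 1224 and 1282 CPM in LTβRΔN neutrophils. Control libraries did not overlap between the labels, as for Mxd1 and 12.7% of tested genes, while the lowest unstimulated LTβRΔN library, 68, lay below 2 stimulated ones. The log2 fold change over both genotypes was -0.28 (SE 0.083, edgeR adjusted p = 0.0423), and -0.21 (SE 0.12, edgeR adjusted p = 0.608) in control and -0.35 (SE 0.11, edgeR adjusted p = 0.0845) in LTβRΔN neutrophils. The call over both remained in 4 of 16 refits that each left out 1 library, those without 68, 77, 79 or 81, and the edgeR adjusted p-value reached 0.141 without 72. It was lost with DESeq2's size factors (-0.27, edgeR adjusted p = 0.0569) and with the index in the model (-0.24, edgeR adjusted p = 1). In LTβRΔN neutrophils alone, the fall was past the threshold without library 68 (edgeR adjusted p = 0.0253). The gene overlaps the span of Spidr on the other strand, listed under its older symbol 2310008H04Rik, which had 37.3 to 86.3 CPM. Whether counting used strand is not given in the sources used here.

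**Figure D2:**
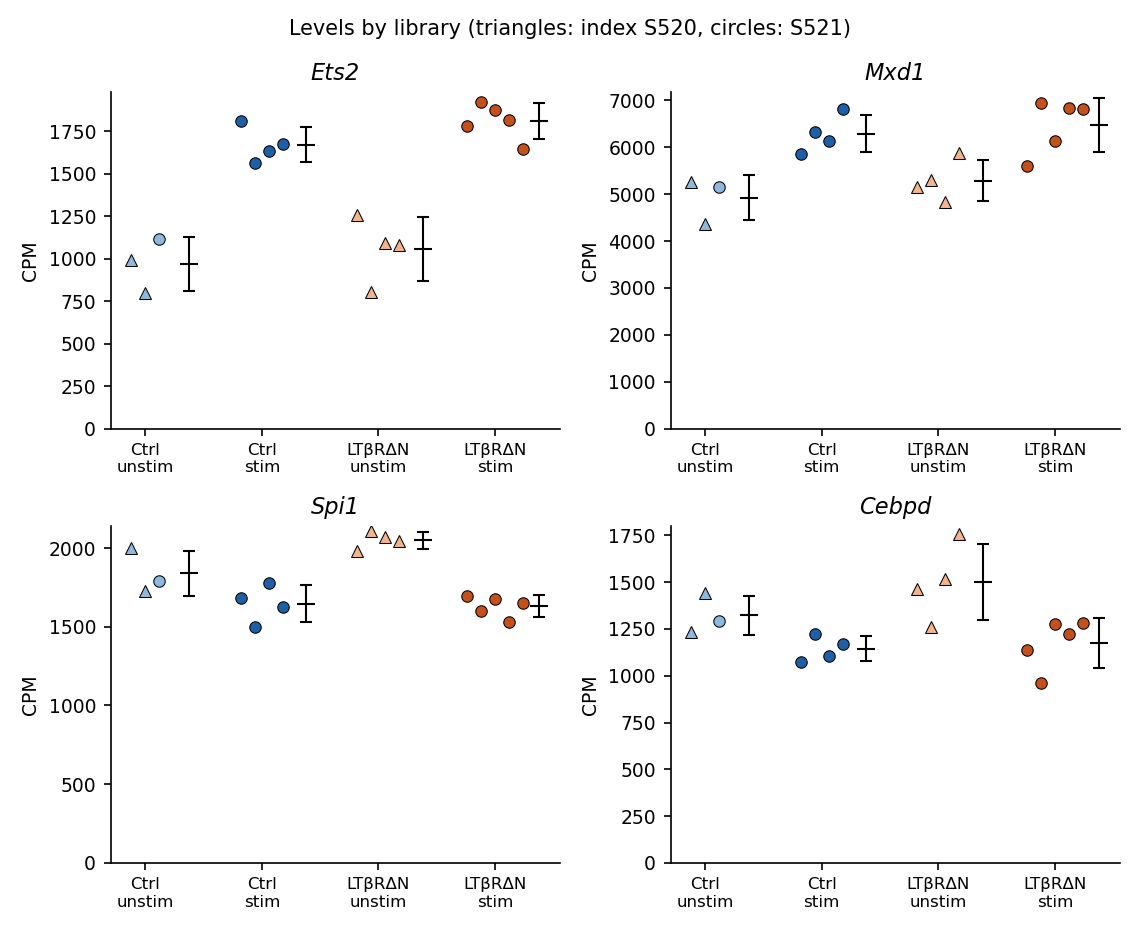
CPM of Ets2, Mxd1, Spi1 and Cebpd in each library by group, on axes that start at 0, with the mean and SD at the right of each group. Triangles are index S520 and circles S521. All 9 stimulated libraries of Ets2 lie above all 7 unstimulated ones, and Spi1 and Cebpd are lower with stimulation.

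How much of these changes is read as a rise or a fall depends on the scale. With library totals alone, the median gene shifted by -0.25 in control and -0.18 in LTβRΔN neutrophils on the log2 scale. Calls were then split into 201 higher and 272 lower genes in control and 216 and 293 in LTβRΔN neutrophils, against 260 and 61, and 275 and 69, with TMM. On that scale Ets2 was still called, at 0.55 and 0.59 (edgeR adjusted p = 0.00921 and 0.00104), which is 0.82 and 0.80 above the median gene. Spi1 was called in both genotypes, at -0.41 and -0.52 (edgeR adjusted p = 0.0165 and 5.05e-04), or -0.14 and -0.31 relative to the median gene. Cebpd was called as well, at -0.46 and -0.53 (edgeR adjusted p = 0.0255 and 0.00248), or -0.19 and -0.32 relative to it. Mxd1 was not called on that scale, at 0.11 in both genotypes, or 0.38 and 0.31 above the median gene. Directions of these 4 genes held under each scaling tried.

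The other 6 factors were not called with stimulation in any of these comparisons. Cebpb, on chromosome 2 from 167688915 to 167690418, had a log2 fold change of 0.55 (95% interval -0.42 to 1.53) in control and -0.06 (-0.90 to 0.78) in LTβRΔN neutrophils. Cebpa and Cebpe, which act in precursors, had estimates of 0.28 and -0.06 in control and -0.06 and -0.09 in LTβRΔN neutrophils, with intervals about 1 log2 unit to each side. Fli1 was among the steadiest of the scarcer factors, with 42.3 to 83.1 CPM over all 16 libraries and log2 fold changes of 0.02 (-0.46 to 0.49) and 0.17 (-0.26 to 0.60). Its sign turned with library totals alone, to -0.24 in control and -0.01 in LTβRΔN neutrophils, and with upper-quartile factors in control neutrophils (-0.03). Runx1 had 8.14, 17.3 and 21.3 CPM in unstimulated and 46.4, 16.4, 31.1 and 18.7 CPM in stimulated control libraries. Its log2 fold change of 0.86 (SE 0.40) missed the threshold (edgeR adjusted p = 0.405), and it was 0.05 (SE 0.36) in LTβRΔN neutrophils. The highest Runx1 values, in control libraries 80 and 82, stood beside the highest sums of the 5 platelet markers, 39.1 and 170 CPM. Other libraries had sums of 0.898 to 21.1 CPM. The sum of 21.1 CPM was that of control library 71, which had the lowest Runx1 value of the 16 libraries, 8.14 CPM. The part of platelets in the Runx1 values was not tested. Gfi1, a zinc finger repressor of precursors, was counted with 41 reads at most and was listed at 0 in 6 libraries, where a count of 0 allows up to 0.228 to 1.35 CPM at 3 counts. Its interval in control neutrophils, -1.89 to 5.91, does not settle a change in either direction. The zeros did not follow depth alone. Among stimulated control libraries, library 80 had 0 counts of 7809748, and library 81 had 16 of 4437039. The part of depth in the width of this interval was not tested.

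To ask whether loss of LTβR changed the factors, genotypes were compared within each treatment label. Cebpb, whose product C/EBPβ serves inflammatory granulopoiesis, had the largest estimates of the 10 factors, both towards LTβRΔN neutrophils, and passed the threshold in neither comparison. In unstimulated neutrophils it had 55.7, 23.6 and 23.9 CPM in control and 183, 99.2, 139 and 172 CPM in LTβRΔN libraries. These groups did not overlap, a separation found for 5.71% of tested genes. In stimulated neutrophils it had 83.7, 53.1, 39.9 and 26.3 CPM in control and 197, 305, 59.9, 74.5 and 70.5 CPM in LTβRΔN libraries. Here 3 of the 5 LTβRΔN libraries lay below the highest control library and 2, libraries 75 and 76, lay far above the rest. The groups overlapped, while 1.31% of tested genes separated them. The log2 fold change was 2.11 (SE 0.49) without and 1.5 (SE 0.42) with stimulation, and these ranked 5 and 24 by p among 9213 genes. After adjustment neither was called (edgeR adjusted p = 0.553 and 0.636). Of all tested genes 0.0217% were called by genotype in each comparison, and 0 of the 10 factors, with DESeq2 as well. At an unadjusted p under 0.05 there were 1 factor without and 2 with stimulation, where 2.8% and 6.41% of tested genes were found.

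Since Cebpb leaned the same way under both labels, the genotype difference averaged over the labels was computed after these values had been seen. In it Cebpb was 1 of 3 genes called (0.0326% of tested genes; 5.21% at an unadjusted p under 0.05), with a log2 fold change of 1.80 (SE 0.32, edgeR adjusted p = 0.0407), about 3.49-fold. The direction held in each refit. The fit took the 16 libraries as independent. Column names, however, pair 7 unstimulated libraries with stimulated ones of the same genotype by a shared number of unstated meaning. If that number is an animal, the averaged p-value counts some animals repeatedly. A block with 1 coefficient per number cannot be fitted to a difference between genotypes, since each number lies within 1 genotype. Other ways to take the pairs into account were not tried. The call remained in 5 of 16 refits that left out 1 library, those without 71, 77, 78, 79 or 80, and without library 73 the edgeR adjusted p-value was 0.243. It was also lost with library totals alone (1.78, edgeR adjusted p = 0.0516) and with the index in the model (1.70, edgeR adjusted p = 0.255), and with the other settings the adjusted p was 6.08e-04 to 0.0361. Without stimulated library 76, the highest, the estimate was 1.55 (edgeR adjusted p = 0.056). With the unstimulated groups fitted alone, the difference there was 2.12 and called (edgeR adjusted p = 0.00587), and with all genes of 1 count or more tested it was 2.11 (edgeR adjusted p = 0.0467). With the other settings it was not called (adjusted p = 0.142 to 1). The index did not separate the stimulated libraries, all of S521. With the index in the model the unstimulated difference was 1.91 (edgeR adjusted p = 1).

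The span of Cebpb overlaps that of Tmem189 on the other strand from its start to base 167689822, while Cebpb runs on to 167690418. Within the shared part, reads of the pair can be told apart only where counting used strand. Tmem189, named for this overlap, had 104 to 112 CPM in unstimulated control and 101 to 139 CPM in unstimulated LTβRΔN libraries, a log2 fold change of 0.17 (SE 0.19, edgeR adjusted p = 1), and 0.52 (SE 0.17, edgeR adjusted p = 0.636) with stimulation. Monocytes also express Cebpb. The 7 monocyte markers summed to 341 to 563 CPM in LTβRΔN and 398 to 494 CPM in control unstimulated libraries, and to 365 to 419 and 357 to 456 CPM in stimulated ones, with 2 to 4 of them at 0 in every library of a group. These ranges overlapped, and the part of monocytes in the Cebpb difference was not tested. In bulk RNA, a change in the share of cells that express a gene and a change in its RNA per cell cannot be told apart.

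**Figure D3:**
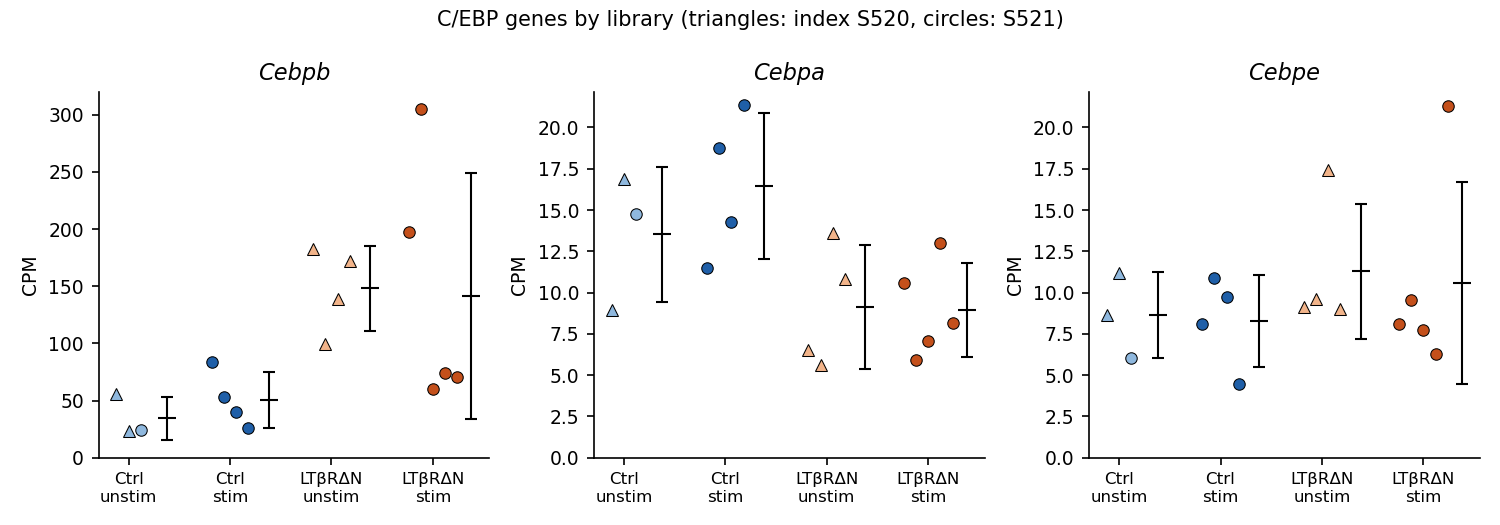
CPM of Cebpb, Cebpa and Cebpe in each library by group, with the mean and SD at the right. Triangles are index S520 and circles S521. Unstimulated LTβRΔN libraries of Cebpb (99.2 to 183 CPM) lie above unstimulated control libraries (23.6 to 55.7 CPM), and stimulated LTβRΔN libraries spread from 59.9 to 305 CPM.

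Cebpa leaned in the opposite direction. It had 11.5, 18.7, 14.3 and 21.3 CPM in stimulated control and 10.6, 5.94, 7.05, 13 and 8.14 CPM in stimulated LTβRΔN libraries, which overlapped. The log2 fold change was -0.89 (SE 0.41, edgeR adjusted p = 0.760) with and -0.54 (SE 0.46, edgeR adjusted p = 1) without stimulation. Over the 16 libraries Pearson's r between log2 CPM of Cebpa and Cebpb was -0.64, a description that carries the group differences of both, and within groups, after subtracting group means, it was -0.36. For the abundant factors the genotype intervals were narrow. With stimulation the log2 difference was 0.11 (95% interval -0.13 to 0.36) for Ets2, 0.04 (-0.16 to 0.24) for Mxd1, -0.01 (-0.20 to 0.17) for Spi1 and 0.04 (-0.19 to 0.27) for Cebpd. The intervals of Cebpe, Runx1 and Gfi1 were wider, and that of Gfi1 ran from -4.76 to 2.03.

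The treatment by genotype interaction was called for 0 genes (0% of tested genes) by edgeR, with 3.71% at an unadjusted p under 0.05 and 0 of the 10 factors among them. DESeq2 called 0 of the factors. The widest estimates were -2.27 (SE 2.48) for Gfi1 and -0.81 (SE 0.53) for Runx1.

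**Figure D4:**
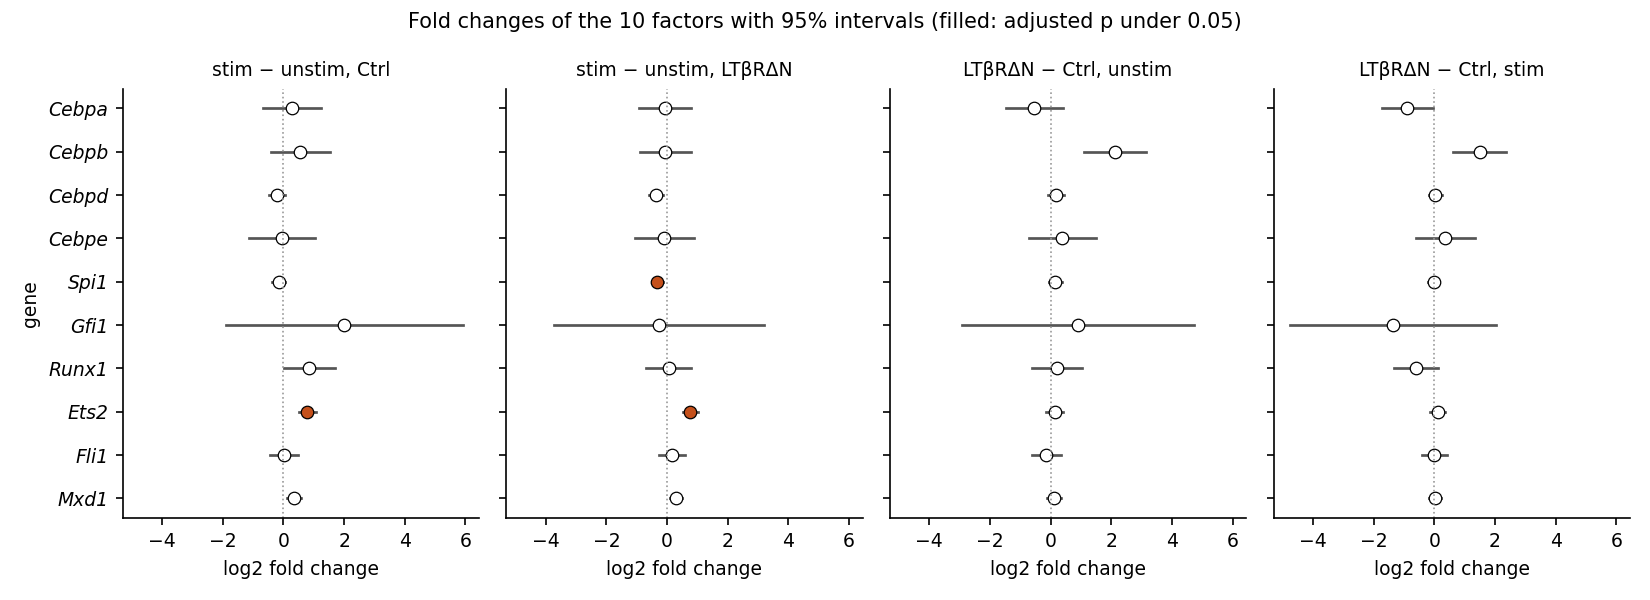
Log2 fold changes (points) and 95% intervals (lines) of the 10 factors from the edgeR fit, for stimulated against unstimulated libraries in each genotype and for LTβRΔN against control under each label. Filled points have an adjusted p under 0.05. Ets2 is filled in both treatment panels and Spi1 in the LTβRΔN panel, and the Cebpb intervals lie above 0 in both genotype panels without being filled.

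The genes that followed each factor most closely over the 16 libraries were taken by Pearson's r of log2 CPM, which here carries the treatment difference. For Ets2 these were Cxcl2 (0.98), a neutrophil chemoattractant, Zfp36 (0.98), which promotes decay of cytokine mRNAs, and Csrnp1 (0.97). Spi1 was followed by Ctsd (0.91), a lysosomal protease, Fam32a (0.90) and Nfe2 (0.90), and Cebpd by Ubb (0.89), D8Ertd738e (0.86) and Cdc42 (0.84). Mxd1 was followed by Qk, Cxcl1 and Fcgr3 (0.88, 0.88 and 0.87). The values for Cebpb, which varied more by genotype, were 0.84 for Atp5sl, 0.82 for Pcbp1 and 0.80 for Ogfrl1. For the scarcer Cebpa, Cebpe, Gfi1, Runx1 and Fli1 the leading genes were Dctn4 (0.85), Fbxl15 (0.75), Pacsin2 (0.81), Fndc3b (0.84) and Hcls1 (0.73). After group means were subtracted, Cxcl2 still had r = 0.86 with Ets2, Qk 0.81 with Mxd1, Pcbp1 0.85 with Cebpb, Pacsin2 0.85 with Gfi1 and Fndc3b 0.83 with Runx1. The genes named for Spi1, Cebpd, Cebpa, Cebpe and Fli1 did not stay among the 3 highest. Nor did the other genes named for Ets2, Mxd1 and Cebpb. Each r was picked as among the highest of all tested genes, which favours high values. All points share libraries and depth, and no p is given.

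Genes around the factors were read from 9 lists. Their counts stand against the shares of all tested genes given above, 2.82% higher and 0.662% lower in control and 2.98% and 0.749% in LTβRΔN neutrophils, and at an unadjusted p under 0.05 against 11.4% and 13% of tested genes. Relatives, partners and regulators of C/EBP proteins moved in both directions. Of 12 tested, 2 were higher in stimulated control neutrophils, Trib1 and Nfil3, and 1 was lower, Ddit3. Trib1, a pseudokinase known to promote degradation of C/EBPα, averaged 624 ± 104 CPM (SD, n = 3) without stimulation in control neutrophils. With stimulation it averaged 1521 ± 82.2 CPM (SD, n = 4), a log2 fold change of 1.29 (SE 0.18, edgeR adjusted p = 2.68e-05). Nfil3, a leucine zipper repressor, rose by 0.90 (SE 0.16, edgeR adjusted p = 7.35e-04), and Ddit3, which encodes the C/EBP-related stress factor CHOP, fell by 0.91 (SE 0.20, edgeR adjusted p = 0.00628). In LTβRΔN neutrophils these 3 were called in the same directions (1.08, 0.92 and -1.04), and Atf3 was lower as well (-0.71, SE 0.19, edgeR adjusted p = 0.0295). The medians of the list were 0.04 and 0.26, against -0.02 and -0.03 over all tested genes.

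Among the lists, chosen with earlier results of these data known, inflammatory genes known as targets of C/EBP proteins had the largest share called. Of 11 tested, 6 were higher with stimulation in each genotype and 0 lower, namely Cd14, Il1rn, Tnf, Saa3, Il1b and Ptgs2, and the list medians were 1.62 and 1.24. Cd14, a co-receptor for bacterial lipopolysaccharide, averaged 817 ± 148 CPM (SD, n = 3) in control neutrophils without stimulation and 6865 ± 1131 CPM (SD, n = 4) with it (log2 fold change 3.07, SE 0.21, edgeR adjusted p = 4.31e-10). Tnf rose by 4.19 in control and 3.5 in LTβRΔN neutrophils on the log2 scale, and Il1rn, which encodes the IL-1 receptor antagonist, by 1.62 and 1.44. Saa3, an acute-phase gene, was at no more than 1.36 CPM in unstimulated and at 13.7 to 49.6 CPM in stimulated libraries. Among the listed genes that did not pass, Lcn2 was counted at 2057 ± 290.1 (SD, n = 3) and 2147 ± 386 (SD, n = 4) CPM in control neutrophils. The part of C/EBP proteins in these changes was not tested.

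Granule genes, which C/EBPε and C/EBPα switch on in precursors, were called by edgeR in 0 of 11 cases with stimulation, with 2 at an unadjusted p under 0.05 in control, where 11.4% of tested genes were, and 0 in LTβRΔN neutrophils, where 13% were. Their median log2 fold change with stimulation was 0.82 in control and -0.09 in LTβRΔN neutrophils, and 0 of 11 were above 0 between genotypes with stimulation (median -0.59, all genes -0.01), where 0 were called and 3 had an unadjusted edgeR p under 0.05, against 6.41% of tested genes. The 14 listed hold all 7 immature neutrophil markers, whose sum was highest in stimulated control libraries 82 (811 CPM) and 83 (340.5 CPM), against at most 234 CPM in the other libraries, and the part of immature cells in these medians was not tested.

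Of 14 tested PU.1 targets, 3 were higher with stimulation in each genotype, against 2.82% and 2.98% of tested genes, and 0 lower. These were Cd14, counted in the previous list too, Fcgr3, an Fc receptor (0.71 and 0.62), and Tlr4, the lipopolysaccharide receptor (0.76 and 0.94). Medians of 0.05 and -0.05 lay near those of all genes. Of 13 other ETS factors and partners 1 was higher in both genotypes, Gabpb1, a partner subunit of the ETS factor GABPα (0.86 and 0.98, edgeR adjusted p = 0.0341 and 0.00427). Of 7 RUNX partners and relatives 0 were called in control and 1 was higher in LTβRΔN neutrophils, the co-repressor Tle3 (0.51, SE 0.13, edgeR adjusted p = 0.0217). It had 178 ± 10.5 (SD, n = 3) and 181 ± 18.2 (SD, n = 4) CPM in the control groups, and 130.4 ± 18.7 (SD, n = 4) and 184 ± 7.43 (SD, n = 5) CPM in the LTβRΔN groups. Of 8 GFI1 partners and of 8 members of the MYC, MAX and MXD network 0 were called in each genotype by edgeR. At an unadjusted p under 0.05 there were 0 GFI1 partners in each genotype, and 1 network member in control and 2 in LTβRΔN neutrophils, against 11.4% and 13% of tested genes. Over both genotypes 0 of these 8 network members were called beside Mxd1. Of 12 further granulocyte factors, Nfe2 was lower in both genotypes (-0.59 and -0.69, edgeR adjusted p = 0.00163 and 5.58e-05) and Satb1 higher in control neutrophils (1.13, SE 0.29, edgeR adjusted p = 0.0237). In LTβRΔN neutrophils Satb1 was not called (-0.01, SE 0.25, edgeR adjusted p = 0.995). Of these lists 0 genes were called between genotypes.

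**Figure D5:**
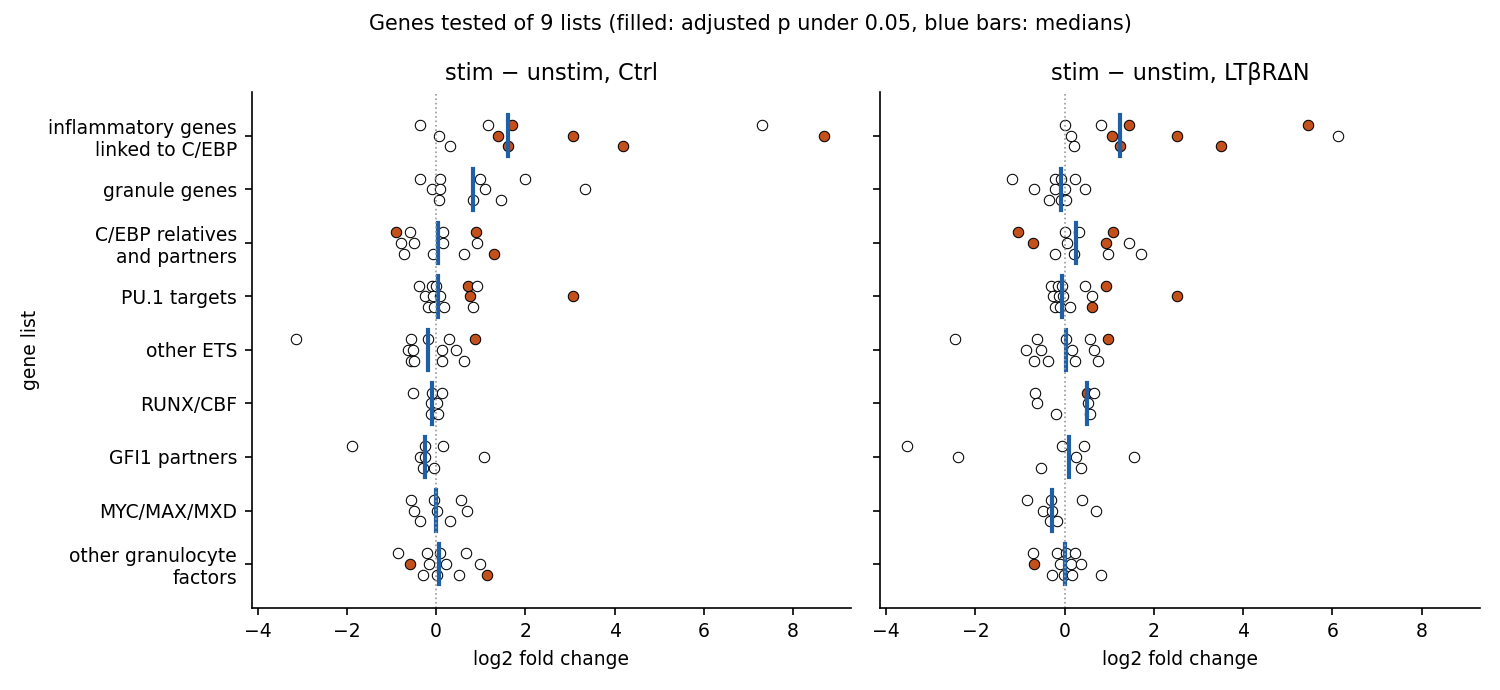
Log2 fold change with stimulation of each tested gene of the 9 lists (points) and the list median (blue bars), in control and LTβRΔN neutrophils. Filled points have an adjusted p under 0.05. Inflammatory genes linked to C/EBP lie furthest to the right, with medians of 1.62 and 1.24.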

How the data were processed

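The authors deposited 1 table of HTSeq counts per gene symbol, whole numbers without normalization, for 16 libraries from single-end HiSeq2500 reads. The submitters' processing notes name Bowtie 1.0.0, TopHat 1.4.1, HTSeq 0.7.1 and build mm10, and the strand setting is not given in the sources used here. Columns were matched to samples by their opening number, and 0 columns were left unused. Counts were filtered with filterByExpr (minimum count 10, minimum total 15), scaled by TMM and fitted in edgeR 4.0.16 (R 4.3.3) with 1 coefficient per group over all 16 libraries. The quasi-likelihood test was adjusted by Benjamini-Hochberg over 9213 genes, and an adjusted p under 0.05 was called. The SE is the log2 fold change over the square root of F. The 10 genes and the lists were chosen with earlier results of these data known. Named genes were the 10, Ltbr, Cish, Socs3 and Nfkbia, up to 4 called genes per list and comparison with the smallest adjusted p, and the 3 genes of highest r to each factor. Lcn2, Il1b, Ptgs2, Mpo, Elane, Tmem189 and 2310008H04Rik were added after their values were seen. Lists held C/EBP, ETS, RUNX, GFI1 and MYC relatives and partners, other granulocyte factors, C/EBP and PU.1 targets and granule genes. Of 168 listed symbols 165 were in the table, 5 of them by older symbols. The permutation test planned for members below the filter was not needed. Alternatives were other scalings, filters, the index, DESeq2 1.42.0 and each library left out. The averaged genotype difference and the block by name number were added after seeing the data. The fit was tested on simulated data first. Libraries of 1 group differed beyond sampling noise in all 25 pairs (chi-square 7.12 to 50.4 per degree of freedom), so none was counted as a repeat run of the same library. That measure compares with counting noise only and cannot tell whether libraries came from the same animal or cells. Intervals and limits at 0 counts cover counting error or the spread between libraries only.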

Additional observations from a re-analysis of the deposited data

Results flagged for a closer look

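Among 30 groups of values of the 10 factors, 3 held a library far from the others, where about 1.5 are expected by chance at 1 in 20. Cebpe was at 17.4 CPM in library 69, beside 9.02 to 9.60 CPM in the other unstimulated LTβRΔN libraries. It was at 21.3 CPM in library 79, beside 6.29 to 9.53 CPM in the other stimulated LTβRΔN libraries. Gfi1 was at 4.93 CPM in library 77, which rests on 7 counts, beside 0 to 0.623 CPM in the other stimulated LTβRΔN libraries.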

How the results depend on the processing

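The 8 called results of the factors kept their direction in all 170 refits and stayed called in 126, and among refits of the 62 uncalled results 11 became called and 7 changed sign by more than 1 SE. With stimulation in control neutrophils, 1 factor was called, against 3 with library totals only, 2 with DESeq2, 2 at an unadjusted p under 0.01 and 0 with the index. The number of all genes called was 321, against 512 at that p and 157 with the index. In LTβRΔN neutrophils 2 factors were called, against 1 with every gene of at least 1 count, 1 with only the compared groups, 4 with DESeq2, 4 at an unadjusted p under 0.01, 0 with the index, and 1 to 3 with each library left out. All genes called were 344, against 577 and 79 at that p and with the index. The index term rests on the unstimulated control libraries, 2 of S520 and 1 of S521. Over both genotypes 4 factors were called, against 0 with the index and 2 to 4 with each library left out. Between genotypes 0 were called, against 1 at an unadjusted p under 0.01 with stimulation, and 1 at that p, with only the compared groups and with every gene of at least 1 count without stimulation. For the averaged genotype difference 1 was called, against 0 with library totals only, 0 with the index and 0 to 1 with each library left out. The cause was not tested, except that fewer libraries enter the refits.

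Column names carry a second number, shared by 1 unstimulated and 1 stimulated library in 7 cases, whose meaning is not stated. Deviations from group means correlated at 0.021 to 0.069 within these pairs, all under 0.1, although in 6 of 7 both libraries correlated best with each other. With a replicate block by that number, 2 factors were called in control neutrophils against 1, as Mxd1 passed at 0.37 (edgeR adjusted p = 0.0347), and Cebpd passed in LTβRΔN neutrophils at -0.38 (edgeR adjusted p = 0.0121). The block changed no other call of a factor in the comparisons with stimulation. Depth ran from 1094335 to 11932653 counts. Gfi1 had 0 counts in 6 libraries, the deepest among them, and the intervals of Cebpa, Cebpe and Runx1 were wide.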
